A study of Mus musculus with 10 samples.

Results

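The complement genes described here are C1qa, C1qb, C1qc, C2, C3, C4b, Cfb, Cfd and Cfp, 9 of the 55487 genes counted in whole mouse ovaries, picked by their symbols. Each ovary had a library of its own. The Control group held 4 female C57BL/6J mice aged 8 weeks, and the Aged and Aged+CF groups held 3 female mice each of that strain, aged 11 months by the sample labels and slightly younger by the study's methods. CEFFE (200 μL at 3 μg/μL) went into the tail vein of Aged+CF mice over the treatment period, and Control and Aged mice got that volume of saline. CEFFE (cell-free fat extract) is the protein-rich liquid left when fat is emulsified and its cells are removed. All mice of the 3 groups had also been injected with 10 IU of PMSG, a gonadotropin that makes follicles grow, 48 h before the ovaries were taken. The study asked what ageing did to the ovary and how aged ovaries with and without CEFFE differed.

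Complement is a cascade of plasma proteins that marks microbes, dying cells and debris for removal. In the classical pathway, C1q binds a target and its proteases cut C4 and C2, while in the alternative pathway factor B, factor D and properdin do the corresponding work. Both pathways lead to the cleavage of C3. The liver makes most of the circulating proteins, but the C1q chains come largely from macrophages and factor D from fat cells, and complement proteins are also found in follicular fluid.

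The depth ran from 15761789 to 21318254 counted reads per library. All 9 genes passed the filter on low counts that left 18956 genes for testing. Values are CPM, counts scaled to the size of each library and between libraries, or FPKM. FPKM divides the count by gene length and library total and lacks the scaling between libraries, so the order of ovaries can differ from CPM. It is used wherever levels of different genes are compared, and for marker genes and their sums. The label of the tissue was checked with 10 granulosa cell and 10 oocyte markers, of which all were tested. Their most abundant genes were Inha, an inhibin subunit, at a mean of 1579 FPKM over the 10 ovaries, and Zp3, a zona pellucida protein, at 23.1 FPKM.

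Some ovaries stood apart from the rest of their group. Aged 34 had 2406 FPKM over 10 B and plasma cell markers, against 245 in Aged 31, 15.2 in Aged 33 and 9.62 to 43.7 in the Control and Aged+CF ovaries. The summed oocyte markers of Aged 34 were at 3.67 FPKM, against 36.6 in Aged 31 and 33.8 in Aged 33. Markers of the oviduct epithelium, a tissue next to the ovary, summed to 117 FPKM in Control 33 and 103 in Aged 34, and to 3.35 to 25.6 in the other ovaries. Spread within the group, as the biological coefficient of variation, was 0.378 for Aged against 0.209 for Control and 0.193 for Aged+CF. The log2 fold changes of the 9 genes that involve the Aged group are therefore given with and without Aged 34.

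Aged ovaries had more C1qa and C2 than Control ovaries. Calling a gene took an edgeR adjusted p under 0.05 and a fold change no smaller than 1.5. By this rule 2 of the 9 genes were called higher in Aged and 0 lower, where 5% of all tested genes were called higher and 11.1% in either direction. With the unadjusted p in its place, 4 of the 9 were called higher (C1qa, C2, C3 and C4b), against 8.79% of all genes. In C1qa, C1qb, C1qc and C2 every Aged ovary lay above every Control ovary, a pattern shared by 11.8% of the genes tested. The median log2 fold change of the 9 genes was 0.50, or 0.42 without Aged 34, and that of all tested genes was -0.00053. DESeq2 called 3 of the 9, C1qa, C2 and C4b, and 14.6% of all genes, and limma called 0 of the 9 and 7.88% of all genes. The count of 2 fell to 0 without Control 31, Control 32 or Control 33 and to 1 without Control 34 or Aged 34.

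Between Aged+CF and Aged ovaries, 0 of the 9 genes were called at the edgeR adjusted p, and DESeq2 and limma also called 0. All 9 log2 fold changes were below 0, with a median of -0.54 against -0.02 for all genes, but the median of the 9 was -0.10 without Aged 34. Of all tested genes 0.00528% were called, which is 1 gene, but 556 were called without Aged 34, 441 by DESeq2 and 5 by limma. At the unadjusted p, Cfb was the 1 gene of the 9 called, and it was lower in Aged+CF, as were 4.05% of all genes. In CPM, Aged+CF lay below Aged without overlap in C2 and Cfb, as in 8.39% of the genes tested, but in FPKM the groups overlapped in Cfb. Without Aged 34, C4b and Cfd had log2 fold changes above 0 and the other 7 stayed below it. The Aged ovaries stand in both comparisons, so the values of the 9 genes are placed side by side here and the comparisons do not count as separate evidence.

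Between Aged+CF and Control ovaries, which share the Control group with the comparison by age, 0 of the 9 genes were called at the edgeR adjusted or unadjusted p, nor by DESeq2 or limma. The shares of all genes called by edgeR were 0.179% and 7.69%, and the 34 genes behind the former became 348 without Aged 34. DESeq2 called 2.79% of all genes and limma 0.549%. C1qa lay above Control without overlap and Cfb below it, where 21.9% of all genes did not overlap in either direction. The median log2 fold change of the 9 genes was 0.22, against -0.03 over all genes.

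**Figure D1:**
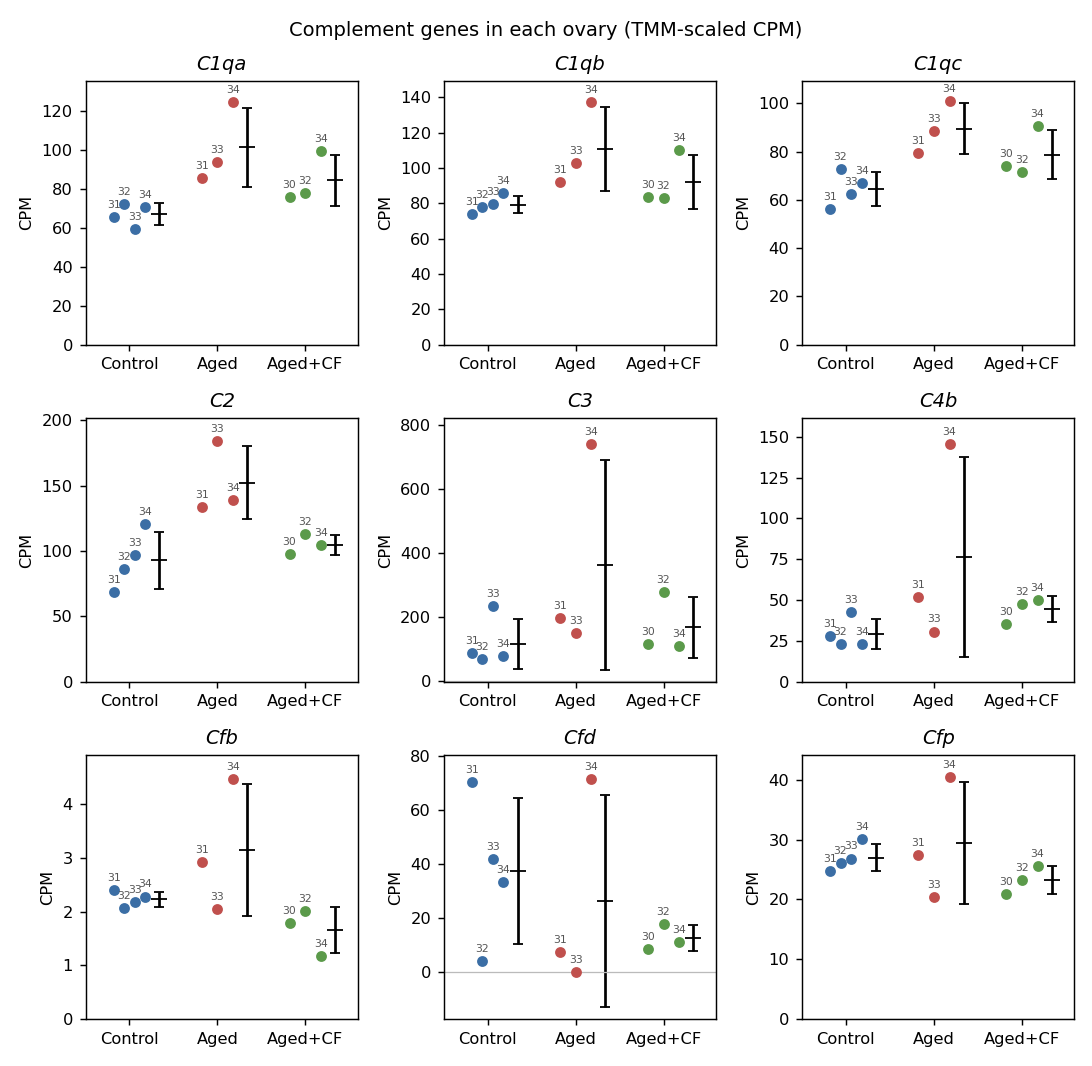
CPM of the 9 complement genes in each ovary, with a point per ovary labelled by its replicate number, and the mean and SD of each group as a bar beside it. C1qa, C1qb, C1qc and C2 are higher in all 3 Aged than in all 4 Control ovaries, and Aged 34 is the highest ovary for every gene except C2.

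C1q is the recognition molecule of the classical pathway and is built from A, B and C chains. C1qa, the A chain, had 65.7, 72.1, 59.4 and 70.6 CPM in Control 31 to 34, 85.8, 93.5 and 124 CPM in Aged 31, 33 and 34, and 76, 77.8 and 99.4 CPM in Aged+CF 30, 32 and 34. Control was the lowest group without overlap, and Aged+CF 34 lay within the range of Aged. C1qa was 1.51-fold higher in Aged than in Control (log2 fold change 0.60, SE 0.15, edgeR adjusted p = 0.025), just past the minimum of 1.5. Without Aged 34 the log2 fold change was 0.46 (edgeR adjusted p = 0.029) and the call was lost, as the fold was below 1.5. The call was also lost without any 1 of the 4 Control ovaries, at edgeR adjusted p from 0.0522 without Control 32 (log2 fold change 0.63) to 0.0618 without Control 33 (0.54). It was lost too with limma (0.45) or the replicate number as a block (0.59). In Aged+CF the log2 fold change was -0.26 against Aged (SE 0.16, edgeR adjusted p = 0.432) and 0.34 against Control (SE 0.15, edgeR adjusted p = 0.34). The former was -0.10 without Aged 34.

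The B chain gene C1qb had 73.6, 78.1, 79.6 and 85.6 CPM in the Control ovaries, 92, 103 and 138 in the Aged ovaries, and 83.5, 82.8 and 110 in the Aged+CF ovaries. Again all Aged ovaries were above all Control ovaries, while Aged+CF overlapped both. Its log2 fold change by age was 0.48 (SE 0.15, edgeR adjusted p = 0.0548) and that of Aged+CF against Aged was -0.27 (SE 0.16, edgeR adjusted p = 0.432). Without Aged 34 they were 0.34 and -0.10. The C chain gene C1qc had 56.1, 72.7, 62.3 and 67.1 CPM in the Control ovaries, 79.5, 88.5 and 101 in the Aged ovaries, and 74.1, 71.7 and 90.6 in the Aged+CF ovaries. Aged was again above Control without overlap, and Aged+CF 32 lay below the highest Control ovary. The log2 fold change of C1qc in Aged vs Control was 0.47 (SE 0.13, edgeR adjusted p = 0.0327), past the p threshold but a fold of 1.39. Against Aged it was -0.19 in Aged+CF (SE 0.14, edgeR adjusted p = 0.516). Without Aged 34 the values of C1qc were 0.42 and -0.11.

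The 3 chains kept similar proportions in every ovary. Per length, C1qa stood at 0.93 ± 0.062 times C1qb (SD, n = 10) and C1qc at 0.42 ± 0.032 times C1qb. The lowest ratio of C1qa to C1qb was 0.781 in Control 33 and the highest 0.984 in Aged+CF 32. Over the 10 ovaries, Pearson's r of log2 CPM was 0.95 for C1qa with C1qb, 0.947 for C1qa with C1qc and 0.918 for C1qb with C1qc, and with the group means removed it was 0.905, 0.845 and 0.834. The summed FPKM of the chains was 173 ± 9.57 in the 4 Control ovaries, 229 ± 55.4 in the 3 Aged ovaries and 204 ± 30.4 in the 3 Aged+CF ovaries.

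C1q is made by macrophages, and 18 macrophage markers were followed beside it. Their summed level was 230, 241, 277 and 234 FPKM in the Control ovaries, 396, 379 and 978 in the Aged ovaries, and 394, 356 and 372 in the Aged+CF ovaries. All Aged and Aged+CF ovaries lay above all Control ovaries. Most of the sum was Lyz2, the gene of lysozyme, with a mean of 273 FPKM. Of the 17 markers tested, 5 were called higher by age and 0 lower (6 and 1 at the unadjusted p), and between Aged+CF and Aged 0 were called at the edgeR adjusted p, with 1 higher and 3 lower at the unadjusted p. The defining markers Adgre1, Csf1r, Cd68 and Fcgr1 were present in every ovary and were not called at the adjusted p, and at the unadjusted p Cd68 was higher by age and Adgre1 in Aged+CF against Control. C1qa and Lyz2 had r = 0.882 over the 10 ovaries (Spearman's rho 0.782) and r = 0.765 over the 8 left without Control 34 and Aged 34, which lie farthest from the median of Lyz2. Fewer cells of a type and less RNA per cell cannot be told apart in whole ovaries, and the part of macrophage number in the C1q values was not tested.

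The C1q genes lie next to each other on the minus strand of chromosome 4 (GENCODE M21, build GRCm38), within 18675 bases from 136880129 to 136898803. C1qb (ENSMUSG00000036905) runs from 136880129 to 136886187, C1qc (ENSMUSG00000036896) from 136889804 to 136893065 and C1qa (ENSMUSG00000036887) from 136895917 to 136898803. All 3 are protein-coding and overlap no other annotated gene. Because C1qb and C1qc are neighbours whose levels moved together, their promoters are shown, from RefSeq on GRCm38.p6, each with 250 bases before and 50 after the start in that table and read on the minus strand. That start of C1qc lies inside the gene as GENCODE places it, so that much of its window, including the C/EBP-like match, is within the GENCODE gene. The windows are chr4:136886151-136886450 for C1qb and chr4:136892865-136893164 for C1qc, and the capitals mark matches to the motifs described after them.
C1qb: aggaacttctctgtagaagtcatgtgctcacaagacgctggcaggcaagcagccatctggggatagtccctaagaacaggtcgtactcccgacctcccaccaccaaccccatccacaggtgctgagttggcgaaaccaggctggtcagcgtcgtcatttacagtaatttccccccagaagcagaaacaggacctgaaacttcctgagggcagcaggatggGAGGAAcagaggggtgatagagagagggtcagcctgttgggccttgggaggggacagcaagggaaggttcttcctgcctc
C1qc: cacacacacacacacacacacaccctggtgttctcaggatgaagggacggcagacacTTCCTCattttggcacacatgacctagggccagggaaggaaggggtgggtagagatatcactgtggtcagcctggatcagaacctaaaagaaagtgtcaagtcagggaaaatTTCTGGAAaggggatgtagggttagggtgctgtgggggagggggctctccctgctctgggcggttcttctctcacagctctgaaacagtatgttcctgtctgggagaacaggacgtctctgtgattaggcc

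The motifs were searched on both strands of the windows of the 5 genes with an entry in the promoter table, C1qb, C1qc, C3, Cfd and Cfp; C1qa, C2, C4b and Cfb have none there. The core of the site of PU.1, a factor of myeloid cells, was written GAGGAA and was found in 3 of the 5 windows, at base 221 of the C1qb window, at base 58 of the C1qc window on the opposite strand, and at bases 257 and 273 of the Cfp window on the opposite strand. Of all 32851 promoters in the table, 28.3% hold it. The C/EBP-like motif TTNNGNAA was found in 2 of the 5, C1qc and C3, and in 40.7% of all promoters. In C1qc it starts at base 170, and no match of different motifs overlapped in any of the windows. The interferon response element GAAANNGAA and the NF-kappaB-like motif GGGACTTTC were found in 0 of the 5, and in 8.56% and 0.353% of all promoters.

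C2, the protease cut beside C4 in the classical pathway, had 68.5, 85.9, 97 and 121 CPM in Control 31 to 34, 134, 184 and 139 CPM in Aged 31, 33 and 34, and 97.4, 113 and 104 CPM in Aged+CF 30, 32 and 34. The Aged ovaries were above all others, and all Aged+CF ovaries lay within the range of Control. C2 was also the 1 gene of the 9 that was highest in Aged 33 and not in Aged 34. It was 1.64-fold higher in Aged than in Control (log2 fold change 0.71, SE 0.18, edgeR adjusted p = 0.0285), and 0.81 on the log2 scale without Aged 34. In Aged+CF its log2 fold change against Aged was -0.54 (SE 0.20, edgeR adjusted p = 0.234), lower in 3 of 3 ovaries, or -0.62 without Aged 34, and against Control it was 0.17 (SE 0.18, edgeR adjusted p = 0.708). The call in Aged vs Control was lost without any 1 of Control 31, Control 32, Control 33 and Aged 33. Its log2 fold changes there were 0.59, 0.67, 0.73 and 0.58. The call was also lost with only the compared groups (0.71, edgeR adjusted p = 0.0635), with the replicate block (0.73, edgeR adjusted p = 0.0855) and, on the size of the fold, with limma (log2 fold change 0.57).

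Factor B, the product of Cfb, is the counterpart of C2 in the alternative pathway. Cfb had 2.39, 2.06, 2.18 and 2.28 CPM in the Control ovaries, 2.92, 2.05 and 4.47 in the Aged ovaries, and 1.78, 2.01 and 1.17 in the Aged+CF ovaries. In CPM all Aged+CF ovaries were below all ovaries of the other groups, and Aged 33 lay below Control. In FPKM, Aged+CF 30 (0.379) and Aged+CF 32 (0.418) lay above Aged 33 (0.371). These values rest on 25 to 81 counts per ovary. The log2 fold change by age was 0.50 (SE 0.29, edgeR adjusted p = 0.28), that of Aged+CF against Aged was -0.93 (SE 0.32, edgeR adjusted p = 0.219) and that of Aged+CF against Control was -0.43 (SE 0.30, edgeR adjusted p = 0.541). Its unadjusted edgeR p in Aged+CF vs Aged was 0.0159. Without Aged 34 the log2 fold change by age was 0.20 and that against Aged was -0.61, at an unadjusted p of 0.0702, so that Cfb was no longer called. This call was also lost without Aged+CF 34 (-0.74, unadjusted edgeR p of 0.0616), without both Control 33 and Aged 34 (-0.61, 0.0825) and with the replicate block (-1.21, 0.066). Limma adds 1 to each FPKM, which is more than the level of Cfb in any ovary. This shrinks its fold, so the loss of the call with limma decides nothing.

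The counts of Cfb and C2 are uncertain because Gm20547 overlaps them on the same strand. Cfb (ENSMUSG00000090231) lies at 34856374 to 34862518 and C2 (ENSMUSG00000024371) at 34862604 to 34898265 on the minus strand of chromosome 17, with 85 bases between them. Gm20547 (ENSMUSG00000092511), named after its values were seen, is annotated as protein-coding from 34856412 to 34882042, so that it shares 6107 bases with Cfb and runs on into C2. It had 285 to 611 counts per ovary, more than Cfb in each. Its level was 24.6, 19.5, 21.7 and 20.3 CPM in the Control ovaries, 28.5, 35.4 and 33.7 in the Aged ovaries, and 16.3, 23.1 and 28.2 in the Aged+CF ovaries. Aged was the highest group, with Aged+CF 34 just under Aged 31. With these counts added to those of Cfb, an alternative chosen after seeing the data, the log2 fold change of Cfb was 0.59 in Aged vs Control (edgeR adjusted p = 0.0379), which was called, -0.56 for Aged+CF against Aged (edgeR adjusted p = 0.199) and 0.03 for Aged+CF against Control. The call at the unadjusted p in Aged+CF vs Aged was lost here on the size of the fold. The difference of Cfb between Aged+CF and Control thus turned from below 0 to above it. With the counts added to C2 its log2 fold changes were 0.69, -0.54 and 0.15. C2 also overlaps Zbtb12 on the other strand, and the sources used here do not state whether reads were counted by strand.

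C4b, the mouse gene of complement C4, had 28.1, 23.3, 42.6 and 23 CPM in Control 31 to 34, 51.9, 30.8 and 146 CPM in Aged 31, 33 and 34, and 35.5, 47.4 and 50.3 CPM in Aged+CF 30, 32 and 34. Aged 34 stood far above the other 9 ovaries, and Aged 33 lay within the range of Control. The log2 fold change by age was 1.38 (SE 0.45, edgeR adjusted p = 0.0634) and that of Aged+CF against Aged was -0.78 (SE 0.48, edgeR adjusted p = 0.444). Without Aged 34 the value by age was 0.53 and that against Aged was 0.09, above 0. C4b was called higher by age without Aged 33 (1.77, edgeR adjusted p = 0.0235) and by DESeq2 (1.40, adjusted p = 0.0115). Against Control the log2 fold change of Aged+CF was 0.60 (SE 0.45, edgeR adjusted p = 0.567). C4b (ENSMUSG00000073418, chromosome 17, 34728380 to 34743882) lies with Cfb and C2 in a stretch of 169886 bases. Its near copy C4a had 14 to 51 counts per ovary where C4b had 373 to 2642, and reads may have been split between the copies.

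C3, on whose cleavage the pathways converge, had 84.7, 67.6, 232 and 77.6 CPM in the Control ovaries, 194, 147 and 738 in the Aged ovaries, and 114, 277 and 107 in the Aged+CF ovaries. Aged 34 was again the highest, but Control 33 and Aged+CF 32 also stood above the rest of their groups, and all groups overlapped. The log2 fold change by age was 1.64 (SE 0.64, edgeR adjusted p = 0.108) and that of Aged+CF against Aged was -1.12 (SE 0.69, edgeR adjusted p = 0.441). Without Aged 34 these values were 0.60 and -0.05. By age it was 2.23 without Control 33 (edgeR adjusted p = 0.0529), so its size depends on that ovary as well. Between Aged+CF and Control it was 0.52 (SE 0.63, edgeR adjusted p = 0.75), and -0.06 without Aged+CF 32. In FPKM, C3 varied 10.7-fold over the 10 ovaries and C4b 6.16-fold, against 1.73-fold for C1qc and 1.8-fold for C1qb. Cfd ran from 0 to 58 FPKM, so no such ratio can be given for it.

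**Figure D2:**
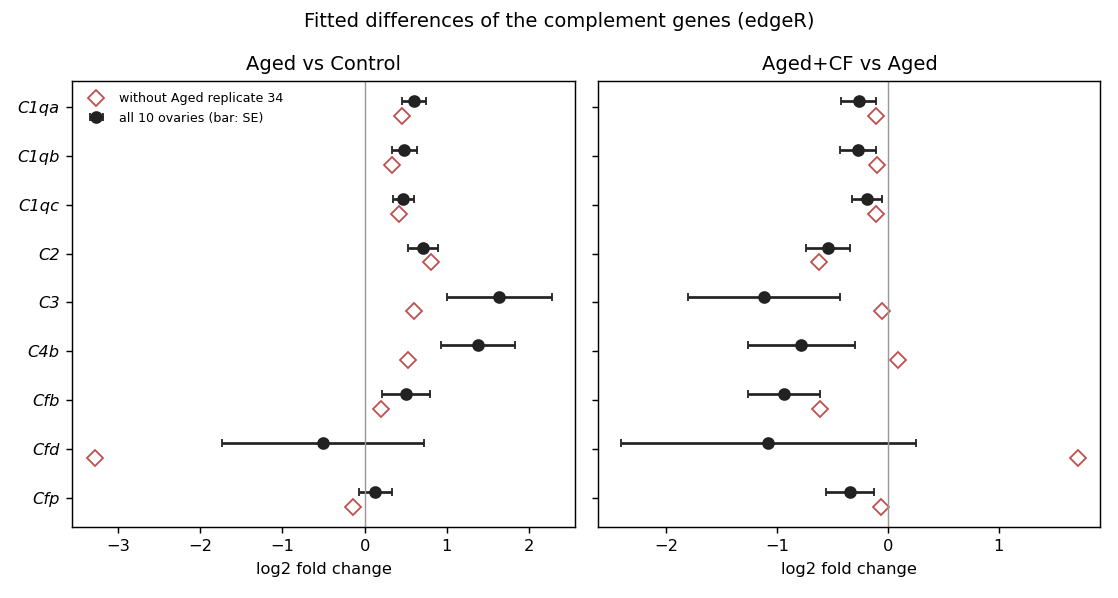
Log2 fold changes of the 9 genes by age (left) and of Aged+CF against Aged (right), as fitted to all 10 ovaries (filled points, bars are standard errors) and without Aged replicate 34 (open diamonds). C3 moves from 1.64 to 0.60 and C4b from 1.38 to 0.53 in Aged vs Control, whereas C2 moves from 0.71 to 0.81.

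C3 and C4b moved together between ovaries, with r = 0.909 over the 10 ovaries (Spearman's rho 0.794), and r = 0.723 without Control 34 and Aged 34. The ovaries with high C3 include Control 33 and Aged 34, in which the 10 oviduct epithelium markers were high. Their most abundant gene, Ovgp1, encodes the oviductal glycoprotein and had 77.6 FPKM in Control 33, 61.1 in Aged 34, 7.97 in Aged+CF 30 and at most 1.64 in the other 7 ovaries. The summed markers were 7.39, 10.7, 117 and 12.9 FPKM in the Control ovaries, 13.6, 3.35 and 103 in the Aged ovaries, and 25.6, 16.3 and 10.8 in the Aged+CF ovaries. Of the 9 tested, 0 were called at the edgeR adjusted p in any comparison, and at the unadjusted p there were 0 by age, 1 lower against Aged and 2 lower against Control in Aged+CF. The defining markers Foxj1, Pax8 and Tekt1 were also present, with Pax8 at 0 FPKM in Aged 33 and Tekt1 at 0 in Aged 33 and Aged+CF 30. For C3 with Ovgp1, r was 0.588 over the 10 ovaries (rho 0.418) but -0.168 without Control 33 and Aged 34, so it rests on these ovaries. Aged+CF 32 had the highest C3 after Aged 34, at 277 CPM, with 0.514 FPKM of Ovgp1. With Control 33 and Aged 34 both left out, an alternative chosen after seeing the data, the log2 fold change of C3 was 1.19 in Aged vs Control (edgeR adjusted p = 0.062) and -0.05 for Aged+CF against Aged. For Aged+CF against Control it was then 1.14 (edgeR adjusted p = 0.142).

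The B and plasma cell markers summed to 9.62, 21.7, 18.9 and 9.82 FPKM in the Control ovaries, 245, 15.2 and 2406 in the Aged ovaries, and 41.4, 43.7 and 17.8 in the Aged+CF ovaries. Their most abundant gene was Igkc, the constant region of the kappa light chain, with a mean of 192 FPKM. Its log2 fold change by age was 5.97 (SE 1.30, edgeR adjusted p = 0.0168), and against Aged it was -4.63 (SE 1.37, edgeR adjusted p = 0.184) in Aged+CF, at an unadjusted p of 0.00707. Without Aged 34 these values were 3.43 (edgeR adjusted p = 0.025) and -2.06 (edgeR adjusted p = 0.219). With all ovaries, 6 of the 8 genes of the list that were tested were called higher by age, and 8 at the unadjusted p. With Igkc, r over the 10 ovaries was 0.819 for C3 (rho 0.661) and 0.872 for C4b (rho 0.733), and without Aged 31 and Aged 34 it was 0.52 and 0.477. The part of these cells, or of oviduct tissue, in the C3 and C4b values was not tested.

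The C3 gene (ENSMUSG00000024164) lies at 57203970 to 57228136 on the minus strand of chromosome 17 and holds the microRNA gene Mir6978 on the same strand. Its promoter window, chr17:57228087-57228386 on the minus strand, is shown because it holds 3 matches to the C/EBP-like motif, at bases 181, 193 and 206, in capitals. The match at base 206 reads as the motif on both strands.
C3: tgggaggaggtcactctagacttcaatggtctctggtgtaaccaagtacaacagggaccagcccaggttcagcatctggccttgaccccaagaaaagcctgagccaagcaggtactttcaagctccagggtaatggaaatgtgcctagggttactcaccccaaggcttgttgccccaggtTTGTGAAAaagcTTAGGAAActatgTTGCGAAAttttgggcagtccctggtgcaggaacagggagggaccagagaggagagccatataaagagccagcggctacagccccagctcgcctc

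Cfd encodes factor D (adipsin), the fat cell protease that cuts factor B. It had 70.4, 4.3, 41.8 and 33.6 CPM in Control 31 to 34, 7.4, 0 and 71.6 CPM in Aged 31, 33 and 34, and 8.6, 17.9 and 11.1 CPM in Aged+CF 30, 32 and 34. The values of all groups overlapped, with the lowest and the highest of the 10 ovaries in CPM both in Aged. In FPKM, Control 31 was the highest at 58, above Aged 34 at 56.8. No read was counted in Aged 33, where 3 counts, the upper limit that a count of 0 allows, correspond to 0.212 CPM, counting error only. The log2 fold change by age was -0.51 (SE 1.23, edgeR adjusted p = 0.822), that of Aged+CF against Aged was -1.08 (SE 1.33, edgeR adjusted p = 0.711) and that of Aged+CF against Control was -1.58 (SE 1.28, edgeR adjusted p = 0.606). By age the value was -3.28 without Aged 34 and 0.08 without Aged 33. Against Aged it was 1.71 without Aged 34, and with all ovaries kept it was also above 0 with limma (0.54) and with the replicate number as a block (0.59).

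The 3 genes whose levels were most like those of Cfd were Adipoq, Cidec and Car3, all 3 on the list of 12 adipocyte markers. Adipoq encodes adiponectin, a hormone secreted by fat cells, and Cidec a protein of their lipid droplet. With Adipoq, r was 0.981 over the 10 ovaries (Spearman's rho 0.988) and 0.968 without Aged 33 and Aged 34, the ovaries farthest from the median of Adipoq. Adipoq stood at 5.86, 0.555, 4.55 and 2.43 FPKM in the Control ovaries, 0.903, 0.0384 and 6.51 in the Aged ovaries, and 1.54, 2.29 and 1.47 in the Aged+CF ovaries. The ovary without a Cfd read, Aged 33, was thus also the lowest in Adipoq, and Cidec was at 0 there. The 12 markers summed to 76.5, 16.2, 50.2 and 28.3 FPKM in the Control ovaries, 65.8, 34.3 and 71.8 in the Aged ovaries, and 43.2, 45.5 and 34.1 in the Aged+CF ovaries, with Plin4 the most abundant at a mean of 19.3 FPKM. The sum followed Cfd less closely, with Aged 31 high in Plin4 at 45.6 FPKM and low in Cfd. Of the 10 markers tested, 0 were called at the edgeR adjusted p in any comparison, and at the unadjusted p 1 was higher and 1 lower with age, 1 was lower in Aged+CF vs Aged and 1 lower in Aged+CF vs Control. The defining markers Plin1 and Adipoq were above 0 in every ovary, and Lep was at 0 in 3 of them, Control 32, Aged 31 and Aged 33. The part of fat attached to an ovary in the Cfd values was not tested. Cfd (ENSMUSG00000061780) lies at 79890853 to 79892655 on the plus strand of chromosome 10.

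**Figure D3:**
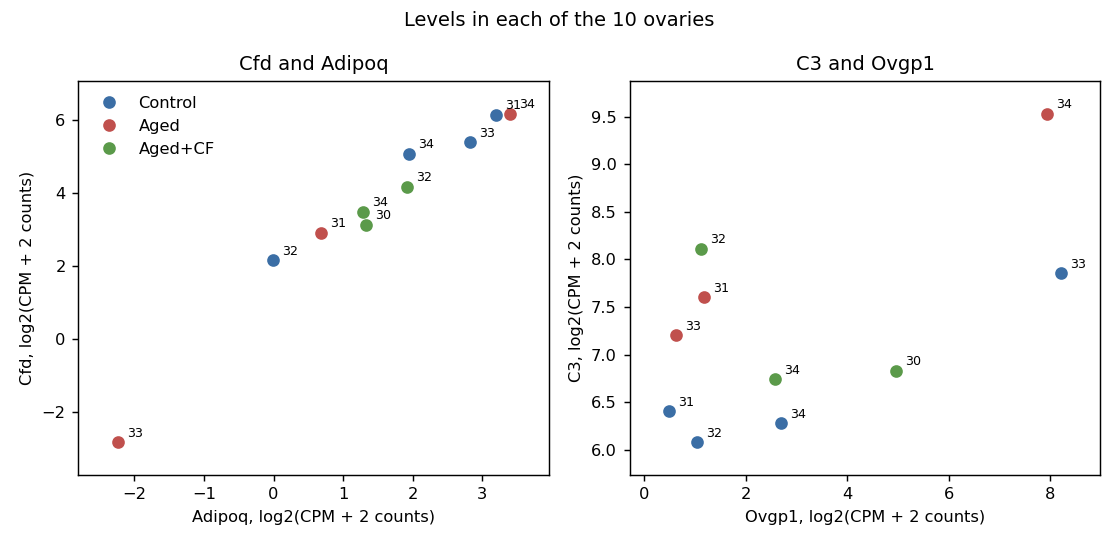
Log2 CPM, computed with a prior of 2 counts, of Cfd against Adipoq and of C3 against Ovgp1, with a point per ovary labelled by its replicate number and coloured by group. Cfd follows Adipoq over all 10 ovaries (r = 0.981), whereas the relation of C3 to Ovgp1 (r = 0.588) rests on Control 33 and Aged 34.

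Cfp encodes properdin, which stabilises the convertase of the alternative pathway. It had 24.7, 26.1, 26.8 and 30.2 CPM in the Control ovaries, 27.4, 20.5 and 40.5 in the Aged ovaries, and 20.9, 23.2 and 25.6 in the Aged+CF ovaries. The groups overlapped, and the lowest and highest of the 10 ovaries were both Aged. The log2 fold change by age was 0.13 (SE 0.20, edgeR adjusted p = 0.713), that of Aged+CF against Aged was -0.34 (SE 0.22, edgeR adjusted p = 0.45) and that of Aged+CF against Control was -0.21 (SE 0.20, edgeR adjusted p = 0.669). Without Aged 34 the value by age was -0.13 and that against Aged was -0.06. Cfp (ENSMUSG00000001128) lies at 20925454 to 20931555 on the minus strand of the X chromosome.

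Per length, C1qb and C1qa led the 9 genes in each group by their means, and Cfb was the lowest as its reads were counted. The overlapping Gm20547 had a mean of 5.48 FPKM in Control, above C4b, so the place of Cfb depends on the counting rule. In Control the order of mean FPKM was C1qb (75.2 ± 4.73, SD, n = 4), C1qa (66.5 ± 4.96), C1qc (31 ± 3.11), Cfd (30.9 ± 22.5), C3 (21.1 ± 14.5), C2 (17 ± 4.01), Cfp (13.7 ± 1.18), C4b (4.81 ± 1.57) and Cfb (0.48 ± 0.034). Neighbours in this order whose ranges did not overlap were C1qa above C1qc, Cfp above C4b and C4b above Cfb, and the other neighbours overlapped. In Aged the order was C1qb (96.9 ± 25.6, n = 3), C1qa (92.6 ± 23.4), C3 (61.9 ± 59.2), C1qc (39.5 ± 6.42), C2 (25.3 ± 2.79), Cfd (20.8 ± 31.3), Cfp (13.9 ± 5.63), C4b (11.8 ± 10) and Cfb (0.63 ± 0.28). Here C1qc stood above C2 and C4b above Cfb without overlap, and the other neighbours overlapped. In Aged+CF the order was C1qb (85.2 ± 13.8, n = 3), C1qa (81.7 ± 12.1), C1qc (36.9 ± 4.66), C3 (29.3 ± 16.7), C2 (18.7 ± 1.14), Cfp (11.5 ± 1.05), Cfd (10 ± 3.74), C4b (7.09 ± 1.16) and Cfb (0.347 ± 0.0911). C1qa stood above C1qc, C2 above Cfp and C4b above Cfb without overlap, and all other neighbours overlapped.

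The liver, the main source of circulating complement, was checked with 8 hepatocyte markers. Of the defining markers Alb, Apoa1, Ttr and Fgb, Fgb was at 0 in all ovaries, Ttr was above 0 only in Control 31 at 0.051 FPKM, and Alb only in Aged 31 at 0.0902 and in Aged+CF 32 at 0.0671. The list summed to 17.2, 40.8, 23.5 and 26.7 FPKM in the Control ovaries, 6.41, 14.7 and 2 in the Aged ovaries, and 8.58, 11.1 and 17.7 in the Aged+CF ovaries, with Apoa1 the most abundant at a mean of 15.5 FPKM. Of the 3 tested, 0 were called at the edgeR adjusted p in any comparison, and at the unadjusted p 1 was higher and 2 were lower by age, and 1 was lower in Aged+CF against Aged. Neutrophils, which store properdin, had markers near 0, summing to 0.688 to 2.77 FPKM per ovary over 10 genes, of which Csf3r was the most abundant and the 1 that was tested. Among the defining markers S100a8, S100a9, Mpo and Elane, Elane was at 0 in all ovaries, Mpo in 6 of them and S100a9 in Control 32, and S100a8 was highest in Aged 34 at 0.504 FPKM. Csf3r was called in no comparison at the edgeR adjusted p and higher in Aged than in Control at the unadjusted p.

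Among the cells that make up the ovary itself, the 10 fibroblast markers summed to 507, 466, 582 and 533 FPKM in the Control ovaries, 396, 217 and 775 in the Aged ovaries, and 486, 518 and 568 in the Aged+CF ovaries, with Col1a1 the most abundant at a mean of 118 FPKM. By age 1 of the 10 was called lower and 0 higher (2 and 0 at the unadjusted p), and the defining markers Dcn, Pdgfra, Lum and Col1a1 were present in every ovary. The 10 granulosa cell markers summed to 2330, 3670, 3085 and 3076 FPKM in the Control ovaries, 1507, 1795 and 1828 in the Aged ovaries, and 2115, 1250 and 2042 in the Aged+CF ovaries. By age 1 of them was called lower at the edgeR adjusted p and 6 at the unadjusted p, and all 10 had log2 fold changes below 0. The defining markers Fshr, Foxl2, Amh and Cyp19a1 were present in every ovary, as were the oocyte markers Zp3, Gdf9, Zp2 and Bmp15. The 10 oocyte markers summed to 140, 194, 145 and 189 FPKM in the Control ovaries, 36.6, 33.8 and 3.67 in the Aged ovaries, and 62.2, 50.7 and 80.1 in the Aged+CF ovaries, and 8 were called lower by age, or all 10 at the unadjusted p. None of these genes was called by edgeR in Aged+CF vs Aged at the adjusted p, and at the unadjusted p 1 granulosa cell and 2 oocyte markers were higher in Aged+CF. A fall in the share of RNA from 1 cell type raises the share of the others in CPM, and its part in the differences of the complement genes was not tested.

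Over the 10 ovaries the r of C2 with the C1q chains was 0.619 to 0.706, and -0.023 to 0.265 with the group means removed. For C3 with the C1q chains it was 0.495 to 0.63, and 0.0304 to 0.341 with the group means removed. Over the 9 ovaries other than Aged 34 it was 0.608 to 0.694 for C2 and 0.051 to 0.123 for C3. Cfd and C4b had r = 0.319 over the 10 ovaries, 0.846 with the group means removed, and 0.0756 without Aged 34. These values describe libraries that share their scaling. The genes outside the 9 whose levels were most like theirs had r between 0.916 and 0.984, the 3 highest being taken for each. They were Ltb4r1, Phf11b and H2-D1 for C1qa, Gnai2, Fcer1g and H2-Q6 for C1qb, and Clec4a2, Ppp1r37 and Mob3a for C1qc. For C2 they were Msrb1, Aldoa and Pilrb1, for C3 Lfng, Nudcd3 and H2-Ob, and for C4b Gbp8, Napsa and Dock2. For Cfb they were AI662270, Arvcf and Prrt1, and for Cfp Serping1, Cd209f and Tmem119. Serping1 encodes the inhibitor of the C1 proteases and was the 1 complement gene among them.

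Of 48 other complement genes, 35 were tested. In Aged vs Control 3 were called higher and 1 lower, against 11.1% of all genes in either direction. At the unadjusted p 5 were called higher and 3 lower. There 3456 of all 18956 genes tested were called in either direction, and 8.79% were called higher. The median log2 fold change of the 35 was 0.17. Leaving out Aged 34 made it -0.24, with 5 called higher and 1 lower, against 16.1% of all genes in either direction in that fit. All 3 called higher were among the 8 receptors tested and encode subunits of the integrins that bind cleaved C3. Itgb2, the shared beta chain, had 15.8 ± 2.4 CPM in the 4 Control ovaries, 51.8 ± 30.9 in the 3 Aged ovaries and 33.9 ± 3.23 in the 3 Aged+CF ovaries (SD). Its log2 fold change by age was 1.71 (SE 0.31, edgeR adjusted p = 0.00967), and against Aged it was -0.61 (SE 0.33, edgeR adjusted p = 0.379). Without Aged 34, the highest Aged ovary of all 3 genes, the values of Itgb2 were 1.14 and -0.02. Itgax, the alpha chain of complement receptor 4, had 5.82 ± 1.18, 30.2 ± 21.4 and 17.6 ± 3.87 CPM, with a log2 fold change by age of 2.38 (SE 0.39, edgeR adjusted p = 0.0074), or 1.66 without Aged 34. Itgam, that of complement receptor 3, had 7.47 ± 1.28, 12.8 ± 3.35 and 11.7 ± 1.38 CPM, with a log2 fold change by age of 0.77 (SE 0.21, edgeR adjusted p = 0.0344). Without Aged 34 it was 0.59 and no longer called (edgeR adjusted p = 0.0578). In all 3, every Aged and every Aged+CF ovary lay above every Control ovary. Of all genes tested, 11.8% lay higher in Aged than in Control without overlap. Between Aged+CF and Control 21.9% did not overlap in either direction. The 3 genes were named for their call in Aged vs Control, which favours a gap from Control.

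Among the other lists, 9 initiators had 0 calls at the edgeR adjusted p in Aged vs Control, with 1 higher and 1 lower at the unadjusted p, and 4 terminal components had 0 at either. The 1 call among 13 regulators was Susd4, an inhibitor of the classical convertase, which was lower in Aged. It had 26.1 ± 5.4, 10.6 ± 2.89 and 14.9 ± 3.75 CPM in the Control, Aged and Aged+CF ovaries, and its log2 fold change by age was -1.31 (SE 0.25, edgeR adjusted p = 0.0109), or -1.12 without Aged 34. Between Aged+CF and Aged 0 of the 35 genes were called at the edgeR adjusted p, and at the unadjusted p Vtn was the 1 gene called, lower in Aged+CF. By the same rule 4.05% of all genes were called lower in Aged+CF, and 1509 of the 18956 tested in either direction. Vtn encodes vitronectin, which blocks the terminal complex, and had 2.32 ± 0.51, 2.78 ± 0.463 and 1.52 ± 0.581 CPM in these groups, with a log2 fold change against Aged of -0.87 (SE 0.34, edgeR adjusted p = 0.261). Leaving out Aged 34 made it -0.75, at an unadjusted p of 0.0726. In Aged+CF vs Control 0 were called at the edgeR adjusted p, and 4 were higher and 2 lower at the unadjusted p. Of all genes 7.69% were called in either direction at that unadjusted p. These counts of 0 depend on Aged 34. Leaving it out, edgeR called Itgb2 (1.12, edgeR adjusted p = 0.00785) and Itgax (1.61, edgeR adjusted p = 0.00989) higher in Aged+CF than in Control. Colec11, an initiator named after its values were seen, was then called lower in Aged+CF than in Aged and higher in Aged than in Control. In that fit 1.8% of all genes were called in Aged+CF vs Control, 2.87% in Aged+CF vs Aged and 16.1% in Aged vs Control. Fcnb and C4bp, named after their values were seen, had no count in any ovary.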

How the data were processed

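RNA of 10 ovaries was used, and groups and replicate numbers come from the sample titles. The authors deposited raw counts per gene and FPKM values, whose processing notes name TopHat, Cufflinks 2.1.1 and build GRCm38.p4; the counting tool, annotation release and use of strand are not given in the sources used here. The deposited FPKM equalled the count over gene length and library total in 100% of values, within a relative tolerance of 0.001. The p-values measure the spread between ovaries of different mice.

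Counts were filtered by edgeR 4.0 (R 4.3) with the groups as design, scaled by TMM and fitted over all 10 ovaries with a mean for each group. The comparisons were tested by the two-sided quasi-likelihood F test, with Benjamini-Hochberg adjustment over the 18956 genes kept. The study's methods give an adjusted p and its results an unadjusted p, so both were used. The fit was tested on simulated counts, and the results of that test are not reported here. No pair of libraries of the same group was a duplicate.

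Named are the 9 genes, the other complement genes called at the adjusted p in any comparison or at the unadjusted p in Aged+CF vs Aged, for each of the 9 the 3 tested genes that average 1 CPM or more and have the highest Pearson r of log2 CPM, and of each marker list the most abundant and defining genes; exceptions are stated, and some results of the B and plasma cell list are not reported here. The 9 genes and all lists were chosen with earlier results of these data known. The lists were initiators, terminal components, the C4 copy, receptors and regulators of complement, and macrophage, neutrophil, adipocyte, B and plasma cell, fibroblast, oviduct epithelium, hepatocyte, granulosa cell and oocyte markers. The gene pairs whose correlations are given, apart from those of highest r, were picked after their values were seen. Positions are from GENCODE M21, which holds 55227 of the identifiers.

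The alternatives were no filter on low counts, DESeq2 size factors, the DESeq2 1.42 Wald test, only the compared groups, the replicate number as a block, limma 3.58 on log2(FPKM + 1), the unadjusted p and leaving out each ovary in turn. Leaving out Control 33 with Aged 34, and adding the counts of Gm20547 to Cfb or C2, were chosen after seeing the data.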

Additional observations from a re-analysis of the deposited data

Results flagged for a closer look

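In Control, the group of 4 ovaries, the gap between an extreme ovary and its nearest neighbour was compared with the whole range by Dixon's test in 25 sets of values, of which chance flags about 1 in 20. In 2 of them Control 33 stood apart. C3 was at 231.64 CPM there, with a gap of 0.895 of the range, and the oviduct epithelium markers summed to 117.416 FPKM, with a gap of 0.95 of the range. The relation of these values to each other was not tested. Groups of 3 ovaries were not tested in this way, so that Aged 34 is described by its values alone.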

How the results depend on the processing

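Of 465 recomputed log2 fold changes of the 9 genes, 434 kept their sign and their side of the call, 15 were no longer called, 4 became called and 12 changed sign. In Aged vs Control, 2 of the 9 genes were called (4 at the unadjusted p, 1 with only the compared groups, 0 with limma, 1 without Control 33 and Aged 34, and 0 to 3 leaving out each ovary in turn). The genes called there were 2096 (3456 at the unadjusted p, 1081 to 3112 leaving out each ovary). In Aged+CF vs Aged, 0 of the 9 were called (1 at the unadjusted p), and 1 gene in all (1509 at the unadjusted p, 2 without the filter or with only the compared groups, 441 with the DESeq2 Wald test, 5 with limma, 289 without Control 33 and Aged 34, and 1 to 556 leaving out each ovary, the latter without Aged 34). In Aged+CF vs Control, 34 genes were called (1457, 487, 528, 104, 159 and 7 to 348 for the unadjusted p, the compared groups, Wald, limma, without Control 33 and Aged 34, and leaving out each ovary).

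The replicate block called 0 of the 9 genes and 80 genes in all in Aged vs Control, 0 genes in Aged+CF vs Aged and 9 in Aged+CF vs Control, with 0.59 for the log2 fold change of Cfd in Aged+CF vs Aged. Deviations of same-numbered Aged and Control ovaries correlated at 0.138, -0.185 and 0.0696. Those of Aged+CF ovaries correlated at -0.0613 with Aged and at -0.0874 and 0.153 with Control. Ovaries of different number were not compared in this way, so these values cannot decide whether the numbers pair the ovaries.

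Log2 fold changes that changed sign were those of Cfp in Aged vs Control (-0.0466 with limma, -0.13 without Control 33 and Aged 34, -0.13 to 0.36 leaving out each ovary), Cfd in Aged vs Control (-3.28 to 0.079) and in Aged+CF vs Aged (0.54 with limma, 1.71 without Control 33 and Aged 34, -1.64 to 1.71 leaving out each ovary), C4b in Aged+CF vs Aged (0.0881 without Control 33 and Aged 34, -1.15 to 0.0877 leaving out each ovary), C3 in Aged+CF vs Control (-0.0625 to 1.11) and Cfb in Aged+CF vs Control with the counts of Gm20547 (0.0278). Causes were not tested.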
